A study of Mus musculus with 30 samples.

Results

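B cells and the lymphoid follicles of the colon were followed through 30 genes that B cells express or that organise follicles. The genes were taken by name, for what they are known to do, and not by a threshold on their values, though earlier results of these data were known. All 30 were found, by gene name and gene ID, among the 46078 genes of the count table. By role, 5 belong to the B cell receptor and its first signalling steps, 11 are surface receptors, 7 are transcription factors, 5 position cells or organise follicles, and 2 act in the endoplasmic reticulum. From textbook knowledge, 16 of the genes were taken as made mostly by the B lineage and 14 as also made by other cells.

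B cells carry an antigen receptor made of membrane immunoglobulin and the signalling chains CD79a and CD79b. In the colon they gather in isolated lymphoid follicles and colonic patches, where stromal and follicular dendritic cells release the chemokine CXCL13 and B cells follow it through CXCR5. Follicles are scattered along the colon, and mature B cells that leave them may become plasma cells, which lose most of the genes described here.

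Colon RNA was sequenced from C57BL/6J mice in 5 groups of 6. Both sexes ate a control diet (CD females, CD males) or a high-fat diet (HFD females, HFD males) for 13 weeks, and vehicle was injected over the final 3 weeks. HFD males given E2 received 17β-estradiol (E2) at 0.5 mg/kg body weight on HFD, with 9 intraperitoneal injections. The mice were a few weeks old when the diet began, and the females kept their ovaries, with no record of the estrous cycle. Each library is 1 animal and holds RNA of colon tissue rather than of sorted cells. The study speaks of distal colon in its E2 comparison. Fewer B cells and less RNA per B cell therefore cannot be told apart in these values. The labels do not say whether the animals shared litters or cages.

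Counts on genes ranged from 8667177 to 17243712 per library (median 11530916), and mitochondrial genes took from 26.1% to 38% of them. Levels are given as CPM (counts scaled to library size by the TMM method), except where genes are compared with each other, which was done in TPM. The 10 colon epithelium markers were present in every group, with summed levels from 2912 to 5746 CPM. T cell genes were low throughout, and the 14 of them summed to between 20.6 and 44.4 CPM. The 30 genes had few counts. Their median count per library ranged from 1.5 for Vpreb3 to 760.5 for Blnk, so a single count is a visible step for the lowest of them.

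Promoter windows from RefSeq (GRCm38.p6, 250 bases before to 50 after each start site) were found for 25 of the 30 genes, in 31 windows out of 32851 in the table. Cd79b, Blk, Ms4a1, Ikzf3 and Cxcr5 had no window. Searched on both strands, the octamer ATGCAAAT was in the windows of Blnk, Ccr6 and Vpreb3 (1.74% of all windows hold it). The ETS core GGAAGT was in 14 genes (23.8%), and its longer form GAGGAAGT, which contains the core, was in Cd72, Fcrl1, Btla and Cd37 (3.2%). The E-box CAGGTG was in 10 genes (20.2%). These are letter matches and were not tested as binding sites.

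The 250 bases before the RefSeq start are shown for Cd79a and Cd22, 2 genes that moved with the rest from animal to animal, for Cd72, which had the lowest adjusted p of the 30 genes between the sexes on CD, and for Blnk, which did not move with the others. Capitals mark the ETS core and the E-box in Cd79a, the longer ETS form in Cd72, the E-box in Cd22, and the octamer, the ETS core and the E-box in Blnk, on either strand. The windows lie at chr7:24897247-24897496 (plus strand), chr4:43454627-43454876, chr7:30879029-30879278 and chr19:40994222-40994471 (minus strand), and each sequence reads 5′ to 3′ on the strand of its gene.
Cd79a: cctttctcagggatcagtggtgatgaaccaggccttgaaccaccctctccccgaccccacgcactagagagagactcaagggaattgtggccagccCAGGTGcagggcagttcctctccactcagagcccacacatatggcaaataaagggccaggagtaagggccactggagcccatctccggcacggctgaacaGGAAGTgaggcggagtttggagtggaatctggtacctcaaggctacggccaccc
Cd72: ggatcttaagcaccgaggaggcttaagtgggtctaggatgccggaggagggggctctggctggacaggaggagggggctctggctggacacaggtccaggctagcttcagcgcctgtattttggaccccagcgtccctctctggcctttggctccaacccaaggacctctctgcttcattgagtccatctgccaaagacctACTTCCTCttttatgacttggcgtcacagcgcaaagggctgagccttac
Cd22: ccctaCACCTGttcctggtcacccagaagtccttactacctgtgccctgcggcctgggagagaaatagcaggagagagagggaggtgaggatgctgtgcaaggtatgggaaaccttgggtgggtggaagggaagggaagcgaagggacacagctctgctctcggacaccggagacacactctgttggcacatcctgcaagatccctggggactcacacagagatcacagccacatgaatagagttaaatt
Blnk: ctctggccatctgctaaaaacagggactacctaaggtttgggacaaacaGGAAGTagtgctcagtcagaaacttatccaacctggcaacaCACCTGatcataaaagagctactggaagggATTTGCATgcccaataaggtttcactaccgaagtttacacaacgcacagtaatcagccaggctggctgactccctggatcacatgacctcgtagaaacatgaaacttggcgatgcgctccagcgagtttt

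Blnk, the adaptor that links the B cell receptor to its downstream enzymes and that is also made outside the B lineage, had the highest level of the 30 genes, 33.4 ± 4.86 TPM (mean ± SD over 30 animals). It was followed by Cxcl13 (7.0 ± 2.80), the complement receptor gene Cr2 (6.52 ± 5.33) and Cd79b (5.53 ± 4.41). Bcl11a (5.25 ± 1.45) and Ebf1 (5.17 ± 1.55), transcription factors that stromal, neuronal or other cells also make, came next with Bank1 (4.54 ± 3.26), a scaffold of receptor signalling. From Cxcl13 downward, neighbours in this order differed by less than their SD over animals. Vpreb3, a chaperone of immunoglobulin chains, was lowest with 0.318 ± 0.483 TPM and had no count in 5 libraries.

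The spread between animals of the same group was the main feature of these genes. The SD of log2 CPM within groups had a median of 1.08 over the 29 genes past the filter on low counts, against 0.298 over all 16060 genes past it. Of these 29 genes, 22 had an SD above that of 90% of all genes. The median biological coefficient of variation was 0.717 for them and 0.194 for all genes. Cr2 (SD 1.57) and Ms4a1 (SD 1.48), the gene of the B cell surface protein CD20, varied most. Blnk (SD 0.154) was at the other end and had the only SD below the median of all genes. Groups accounted for a median of 20.9% of the variance of the 30 genes, from 7.97% for Gpr183 to 41.0% for Spib, and for 16.2% over all genes.

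**Figure D1:**
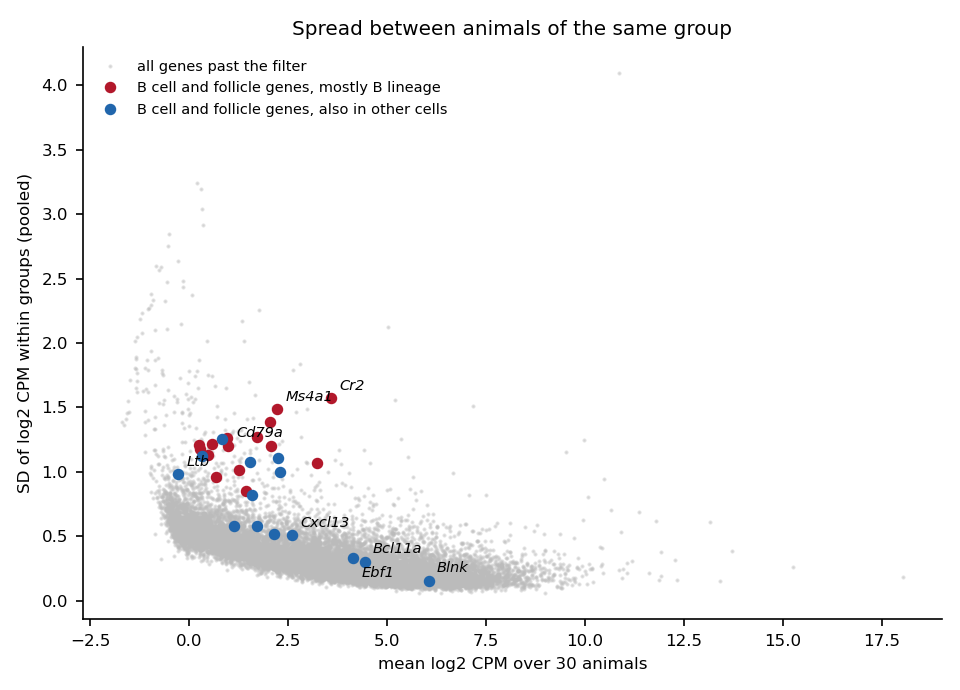
SD of log2 CPM between animals of the same group (pooled over 5 groups) against the mean log2 CPM over 30 animals. Grey points are all 16060 genes past the filter, red points the genes made mostly by the B lineage and blue points those also made by other cells; Cr2 (1.57) and Ms4a1 (1.48) lie far above the cloud and Blnk (0.154) lies within it.

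The summed level of the 16 genes made mostly by the B lineage showed how widely the animals differed. It ranged from 39.8 to 179 CPM in CD females (median 92.8), from 6.60 to 123 in CD males (median 24.6) and from 23.9 to 178 in HFD females (median 57.7). In HFD males it ranged from 3.51 to 167 CPM (median 45.3) and in HFD males given E2 from 34.0 to 179 (median 62.8). Every group overlapped every other group, and the highest of the 30 animals had 51.0 times the sum of the lowest. The lowest was HFD males replicate 4, with 38 counts over the 16 genes and the lowest level of all 30 animals in 18 of the 30 genes. CD males replicate 3 came next, with 95 counts. In each group 1 animal was highest in most genes. These were CD females replicate 6 (highest of its group in 24 of 30 genes), CD males replicate 1 (27), HFD females replicate 6 (27), HFD males replicate 6 (28) and HFD males given E2 replicate 3 (26). CD males replicate 1 had 123 CPM, while the other CD males lay between 6.60 and 36.8 CPM.

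**Figure D2:**
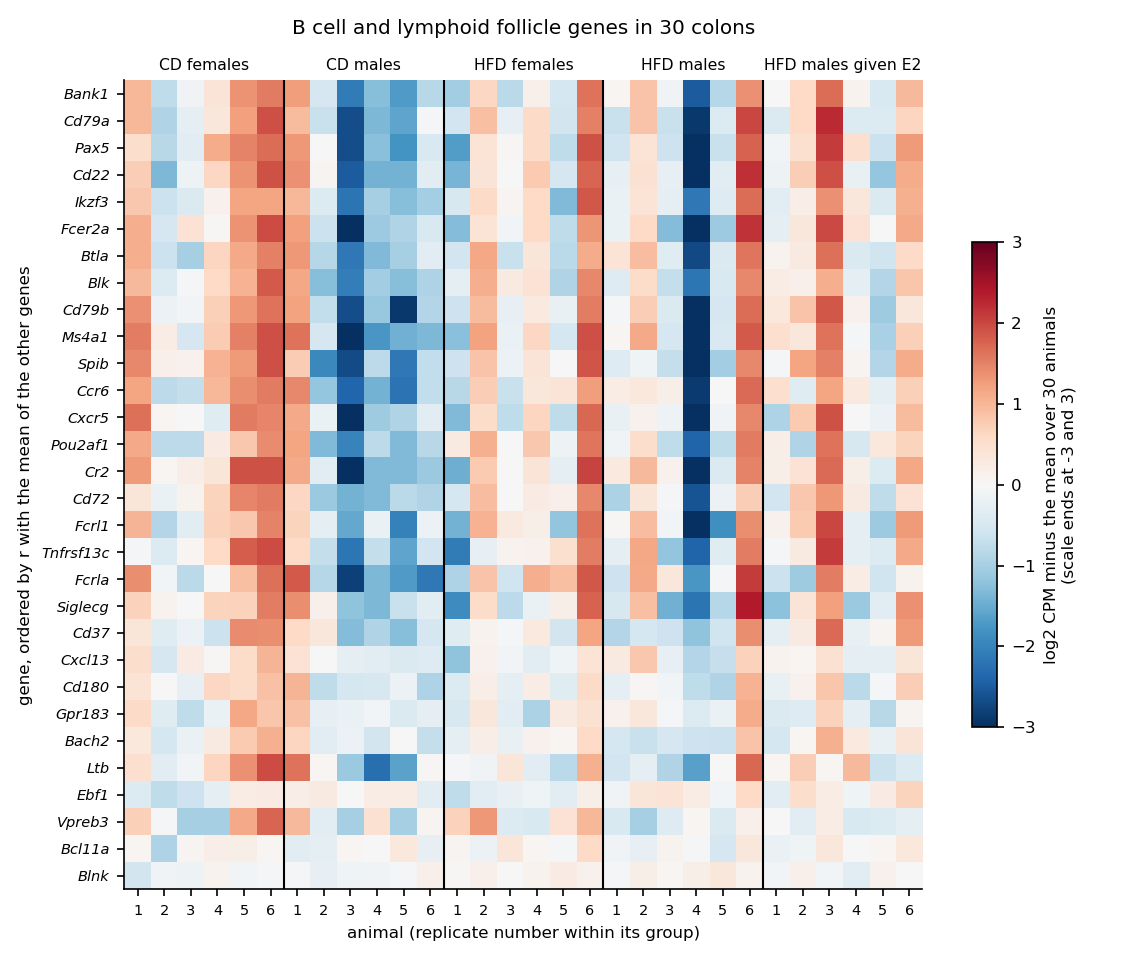
Level of each of the 30 genes (vertical axis, ordered by correlation with the others) in each of the 30 animals (horizontal axis, by group and replicate number), as log2 CPM minus the gene's mean over the animals (colour scale from -3 to 3). Most genes rise and fall in the same animals, with HFD males replicate 4 lowest in 18 genes, while Blnk and Bcl11a at the bottom stay nearly even.

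Most of the genes moved together from animal to animal. With the group means removed, the correlation of each gene with the mean of the other 29 over the 30 libraries had a median r of 0.905, and r was above 0.8 for 22 genes and above 0.9 for 16. The highest were Bank1 (0.979), Cd79a (0.967) and Pax5 (0.967), the factor that fixes B cell identity. These correlations share libraries and their scaling and are given as a description. Blnk (r = -0.031), Bcl11a (0.248) and Vpreb3 (0.462) were below 0.5, and Ebf1 had 0.532. Vpreb3 had a median of 1.5 counts per library. Outside the list, the 10 genes most like the mean of the 30 among 14881 with a mean over 1 CPM included Clu (r = 0.953), Ptprc (0.952), H2-Ob (0.950), H2-DMb2 (0.942), Ighd (0.941), Il21r (0.940), Gm8369 (0.940) and Ighm (0.934). In all, 74 of the 14881 genes had an r over 0.8, and the median r of all was -0.019.

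Pairs of single genes were tested over the 30 libraries with the group means removed, by permutation within groups, with p-values adjusted over 7 pairs. Cd79a correlated with Spib, an ETS factor of B cells and M cells (Pearson r = 0.915, Spearman rho = 0.883), with Ms4a1 (r = 0.908, rho = 0.907) and with the stromal chemokine gene Cxcl13 (r = 0.773, rho = 0.745). For each of these the permutation p of r was 1e-05, the smallest that 100000 permutations can give. Without HFD males replicate 4 and HFD males given E2 replicate 3, the libraries farthest from the median of Cd79a, r was 0.897, 0.898 and 0.734. With Jchain, a plasma cell gene, r was 0.489 (rho = 0.420, permutation p = 0.0148, adjusted p = 0.0207 for r and 0.0484 for rho) and 0.445 without the 2 farthest libraries. In log2 TPM the rho with Jchain was 0.369 and missed the threshold (permutation test, adjusted p = 0.0654), and r within single groups ran from -0.243 to 0.825 in log2 CPM. With the smooth muscle gene Myh11 it was -0.602 (rho = -0.592, permutation p = 0.00148, adjusted p = 0.00259) and -0.569 without the 2 farthest. With Krt5, a squamous epithelium gene, r was -0.352 (rho = -0.380, permutation p = 0.0688, adjusted p = 0.0803) and -0.299 without them. No correlation with the T cell gene Cd3e was found in log2 CPM (r = 0.096, rho = 0.133, permutation p = 0.605, adjusted p = 0.605, r = 0.046 without the 2 farthest), but Cd3e was at most 1.04 CPM, and in log2 TPM r was 0.389 (permutation p = 0.0263, adjusted p = 0.0338). As a description, the r of Cd79a with log2 total counts was -0.138 and with the mitochondrial share -0.263.

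Females were compared with males on CD to ask how the sexes differ without the diet. Of the 27 B cell and follicle genes tested, 10 were past the threshold (p under 0.05 and a log2 fold change over 0.4) as higher in CD females and none as lower. Of all 14922 genes tested, 2.94% were past it as higher and 9.15% in either direction. The number depended on the filter on low counts, which a gene could pass through 1 group alone. It was 5 of 30 with no filter (Cd72, Cr2, Cxcl13, Spib and Tnfrsf13c, against 8.13% of all genes). With at least 10 counts in every library it was 2 of 12 (Cd72 and Cxcl13, against 8.63%). The median log2 fold change of the 27 genes was 1.03, against 0.01 for all genes. With an adjusted p under 0.05, edgeR called 0 of the 27 (10 at an unadjusted p under 0.05) and DESeq2 3 of 30, Cd72, Spib and Tnfrsf13c. Of all genes tested, 2.92% passed the adjusted p. Every one of the 30 genes overlapped between the sexes, while 2.11% of 16060 genes did not.

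Of the receptor genes, Cd79a ranged from 0.882 to 7.33 CPM in CD females (median 3.06) and from 0.139 to 3.65 CPM in CD males (median 0.839). Cd79b, its partner chain, ranged from 3.53 to 12.8 CPM in CD females (median 8.48) and from 0.388 to 9.60 CPM in CD males (median 1.93). Blk, a kinase of the Src family that acts at the receptor, ranged from 1.04 to 5.57 CPM in CD females (median 2.61) and from 0.208 to 3.44 CPM in CD males (median 0.545). For all 3 genes the median of the females was above that of the males, and CD males replicate 1 lay among the females. In Cd79b and Blk the other 5 males lay below every female, and in Cd79a 3 of them did. Cd79a was past the threshold as higher in females (log2 fold change 1.36, SE 0.62, adjusted p = 0.324, edgeR quasi-likelihood test with Benjamini-Hochberg adjustment here and below). So were Cd79b (log2 fold change 1.48, SE 0.63, adjusted p = 0.285) and Blk (log2 fold change 1.40, SE 0.57, adjusted p = 0.253). With no filter on low counts none of these 3 genes passed. Bank1 had a log2 fold change of 1.16 that missed the threshold (adjusted p = 0.387), and Blnk one of -0.06 (adjusted p = 0.859).

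Of the surface receptor genes, 5 of 11 passed the threshold. Cr2, which binds complement on antigen, ranged from 12.3 to 45.0 CPM in CD females (median 22) and from 0.417 to 26.1 CPM in CD males (median 5.04). Cd72, an inhibitory lectin receptor, ranged from 2.16 to 7.82 CPM in CD females (median 3.67) and from 0.834 to 3.94 CPM in CD males (median 1.17). Tnfrsf13c, the receptor for the survival factor BAFF, ranged from 0.882 to 5.28 CPM in CD females (median 1.61) and from 0.139 to 1.93 CPM in CD males (median 0.681). In Cr2, Cd72 and Tnfrsf13c, 5 of the 6 males lay below every female, and CD males replicate 1 did not. All 3 were higher in females, Cr2 with log2 fold change 1.64, SE 0.65, adjusted p = 0.242, Cd72 with log2 fold change 1.51, SE 0.42, adjusted p = 0.0645 and Tnfrsf13c with log2 fold change 1.72, SE 0.56, adjusted p = 0.132. Fcer2a, the low-affinity IgE receptor, and Fcrl1, an Fc receptor-like coreceptor, also passed, with log2 fold changes of 1.32 (adjusted p = 0.331) and 1.07 (adjusted p = 0.312). The other 6 had log2 fold changes of 1.40 (Ms4a1), 1.02 (Cd22), 1.01 (Btla), 0.91 (Cd37), 0.76 (Siglecg) and 0.57 (Cd180) and did not pass.

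Cd72 shares 1423 exon bases with Tesk1 on the opposite strand, and the library kit marks strand, but the strand setting of the counting is not given in the sources used here. In HFD males replicate 4 Cd72 had 0.277 CPM and Tesk1 22.1 CPM, and the r of the 2 genes over 30 libraries, with group means removed, was -0.067. Exons of Cd22, Cd37, Cd180, Pax5, Bach2, Bcl11a and Cxcr5 also overlap those of opposite-strand genes, by 13 to 636 bases, and their values carry the same uncertainty.

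Among the 7 transcription factor genes, Spib ranged from 3.0 to 10.9 CPM in CD females (median 6.30) and from 0.278 to 4.73 CPM in CD males (median 1.05). All but 1 of the males lay below every female, and 4 of the females lay above every male. Spib had the largest log2 fold change of the 27 genes tested (log2 fold change 1.98, SE 0.54, adjusted p = 0.068, exact permutation p = 0.00649). The other 6 did not pass. Pax5 had a log2 fold change of 1.13, Pou2af1, a coactivator of octamer factors, 1.03, Ikzf3 (Aiolos) 1.02, Bach2, which holds back plasma cell differentiation, 0.51 and Bcl11a 0.05. Ebf1, which opens the B cell programme and is also made in stromal cells, pointed the other way with -0.33 (adjusted p = 0.41).

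Of the follicle genes, Cxcl13 ranged from 4.09 to 12.2 CPM in CD females (median 7.82) and from 4.36 to 8.02 CPM in CD males (median 4.76). The 2 groups overlapped, with 3 of the females above every male, and Cxcl13 passed the threshold with a smaller change than the B cell genes (log2 fold change 0.53, SE 0.23, adjusted p = 0.288). Its receptor gene Cxcr5 had a log2 fold change of 1.32 (adjusted p = 0.34) and Gpr183, an oxysterol receptor that guides B cells, 0.34 (adjusted p = 0.724). Ccr6, the receptor for CCL20, did not pass the filter on low counts. It ranged from 0.561 to 3.52 CPM in CD females (median 2.51) and from 0.0695 to 3.22 CPM in CD males (median 0.346), with an exact permutation p of 0.0411. Ltb, a lymphotoxin chain needed for follicles to form, and Vpreb3 did not pass the filter either and had an exact permutation p of 0.0996 and 0.485. Fcrla, an Fc receptor-like protein of the endoplasmic reticulum, had a log2 fold change of 1.01 (adjusted p = 0.644). The exact two-sided permutation test on single genes gave p under 0.05 for 11 of the 30, against 14.2% of 16060 genes, and its smallest possible p was 0.00216.

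**Figure D3:**
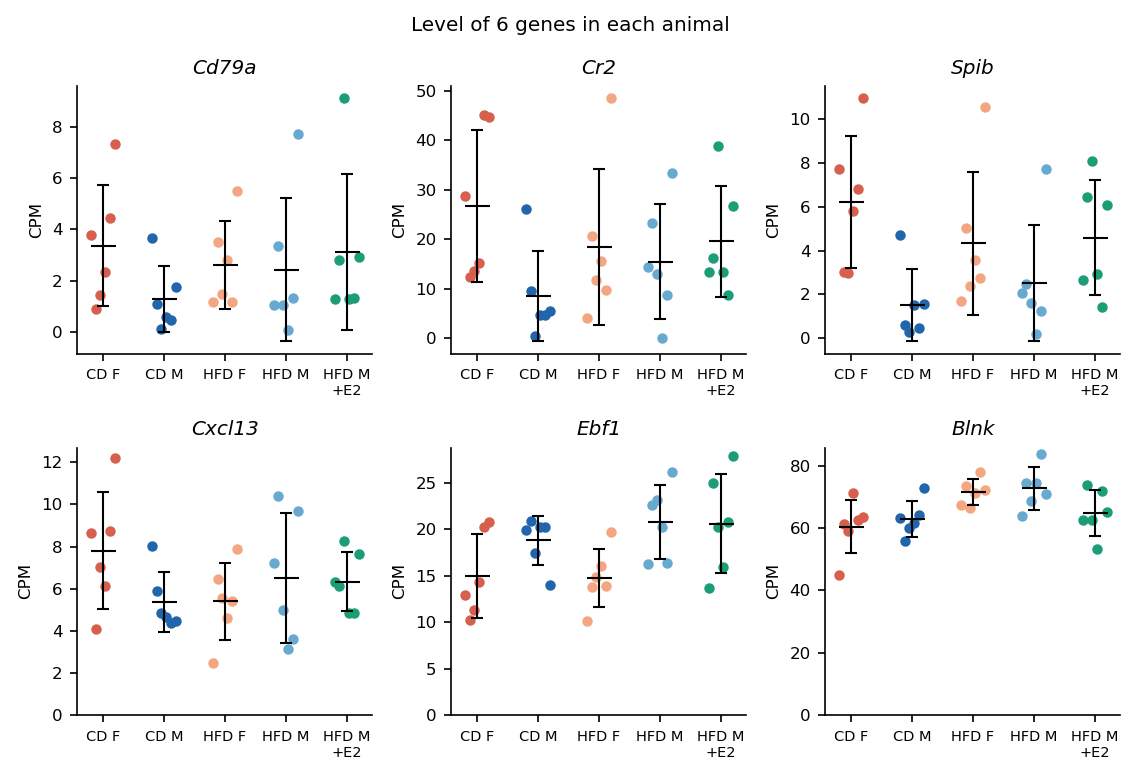
CPM of 6 genes in each animal (points, spread sideways in order of replicate number) by group, with the mean and SD as black bars; F, females; M, males. In Cr2 and Spib 1 CD male (replicate 1) sits among the females, in Cd79a 3 CD males do, and 1 HFD male (replicate 4) sits near 0 in all 3 genes, while Blnk lies between 45.0 and 84.0 CPM in all 30 animals.

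The difference between the sexes on CD depended on single animals. Without CD males replicate 1, 23 of the 27 genes passed the threshold, all higher in females, and 15 had an adjusted p under 0.05, with a median log2 fold change of 1.94. The background without that library was 11.2% of 15019 genes past the threshold (4.14% as higher) and 4.6% past the adjusted p. Leaving out any one of the 11 other libraries gave between 3 and 16 genes, while the share of all genes past the threshold stayed between 8.1% and 10.3%. It was 3 without CD males replicate 4 or 5, 4 without CD females replicate 1 or 6 or CD males replicate 3 or 6, 5 without CD females replicate 5 and 6 without CD males replicate 2. Without CD females replicate 2 it was 16 (1 with an adjusted p under 0.05), and without CD females replicate 3 or 4 it was 14 and 11. Cd72, Spib and Tnfrsf13c passed in all 12 of these fits. Of the others past the threshold with all libraries, Blk and Cr2 passed in 6 of the 12 and Cxcl13 in 5. Cd79a, Cd79b and Fcer2a passed in 4 and Fcrl1 in 3. Ebf1 was among the genes counted without CD females replicate 5 or 6 or CD males replicate 6, as lower in females, and every other gene counted was higher. CD males replicate 1 is left out here only as 1 of the 12, and nothing in the labels sets it apart.

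**Figure D4:**
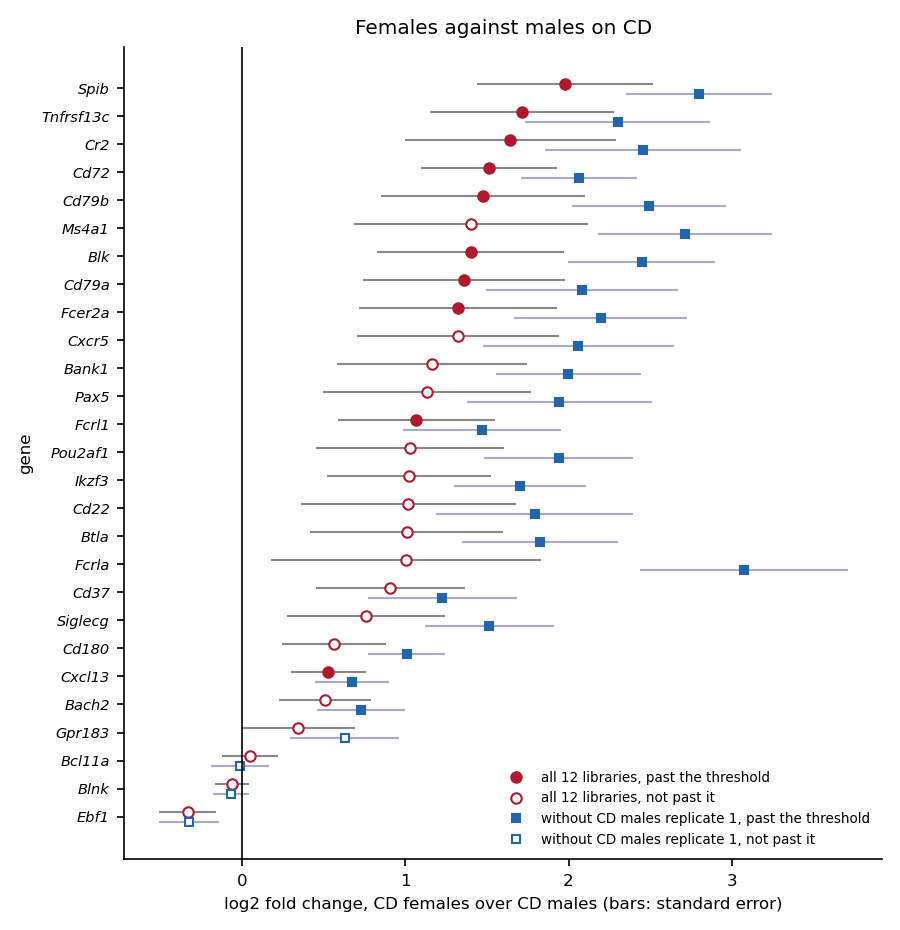
Log2 fold change of CD females over CD males (horizontal axis) with its standard error for the 27 genes tested, from all 12 libraries (circles) and without CD males replicate 1 (squares); filled symbols are past the threshold. With all libraries 10 genes are past it, and without that animal 23 are, with Blnk, Bcl11a and Ebf1 near or below 0 in both.

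Genes of other cells moved in the same comparison, and their part in the result was not tested. The 8 smooth muscle genes were lower in CD females in 8 of 8 cases, 4 with an adjusted p under 0.05, against 6.21% of all genes past the threshold as lower. Their summed level ranged from 5405 to 8392 CPM in CD females and from 7077 to 12711 in CD males. CD males replicate 1 had 7077 CPM, the lowest of the CD males. The sum of the 16 B lineage genes ranged from 6.60 to 123 CPM in the CD males and from 39.8 to 179 in the CD females. The 123 CPM was that of CD males replicate 1, and the other CD males reached at most 36.8 CPM. As this animal was singled out by these same values, the gap without it is not a test of the sexes.

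Some genes that accompany follicles were also higher in CD females. Gp2, a marker of the M cells that overlie follicles, ranged from 0.240 to 5.96 CPM in CD females (median 4.10) and from 0 to 1.22 CPM in CD males (median 0.0489). It was higher in females (log2 fold change 3.64, SE 0.87, adjusted p = 0.0404). Its level in CD males was near the floor, and a gene could pass the filter on low counts mainly through the females. The size of its change therefore rests on few counts in the males. Chst4, a sulfotransferase of high endothelial venules and other cells, ranged from 18.0 to 30.04 CPM in CD females (median 22.1) and from 7.5 to 16.3 CPM in CD males (median 11.9), with no overlap (log2 fold change 0.95, SE 0.18, adjusted p = 0.00889). Of all 16060 genes, 2.11% had no overlap. Ccl20, the chemokine that draws CCR6-bearing cells, ranged from 2.23 to 9.07 CPM in CD females (median 4.92) and from 1.35 to 4.58 CPM in CD males (median 1.76) (log2 fold change 1.32, SE 0.38, adjusted p = 0.0734). The counts of the lists that follow stand against 2.94% of all genes past the threshold as higher and 6.21% as lower. Of the lists, 3 of 7 follicle stroma and high endothelium genes tested rose and 1 of 7 M cell genes, while Tnfaip2 of the M cell list fell (log2 fold change -0.64, SE 0.18, adjusted p = 0.0718). The median log2 fold change of the M cell list was 0.09. Of 15 other B cell genes, 2 rose, H2-DMb2 (log2 fold change 1.45) and Cd40 (0.72), and the median of the list was 0.78. Of 16 genes of B cell receptor signalling 4 rose, among them Pik3ap1 (0.76), and Prkcb, a protein kinase C that other cells also make, fell (log2 fold change -0.69, SE 0.10, adjusted p = 0.00242). Of 6 germinal centre genes Il21r rose (0.92) and Mybl1 fell (log2 fold change -0.45, SE 0.20, adjusted p = 0.308). Of 5 T cell genes tested, Cd4 rose (0.71). Of 7 plasma cell genes, Sdc1 (0.42), which epithelium also makes, and Igkc (1.13) rose. Of 7 dendritic cell genes Itgax rose (0.48), and the median of the list was 0.11. Of 9 colon epithelium genes 3 rose, Muc2 (0.57) and Lgr5 (0.53) among them, and 2 fell. Of 4 adipocyte genes and 1 squamous epithelium gene tested, edgeR called none.

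The same comparison on HFD asked whether the sex difference held on the diet. Each of the B cell and follicle genes overlapped between the sexes there, as it did in the 3 other comparisons of 2 groups (of all genes, 0.399% did not on HFD, 0.224% between the diets in females, 0.367% in males and 0.411% with E2). Of 28 genes tested, 1 passed the threshold (3.09% of all 15179 genes did), and the median log2 fold change was 0.20, against 0.01 for all genes. That gene was Ebf1, lower in females. It ranged from 10.2 to 19.7 CPM in HFD females (median 14.4) and from 16.3 to 26.3 CPM in HFD males (median 21.4). Of the 6 females, 5 lay below every male (log2 fold change -0.50, SE 0.16, adjusted p = 0.85, exact permutation p = 0.0152). Ebf1 passed in all 12 fits that lacked 1 library. With edgeR 0 of the 28 genes had an adjusted p under 0.05 (1 at an unadjusted p under 0.05), and DESeq2 also gave 0.

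Genes of the mature B cell varied widely on HFD in both sexes. Cd79a ranged from 1.15 to 5.48 CPM in HFD females (median 2.15) and from 0.0925 to 7.70 CPM in HFD males (median 1.19), and Ms4a1 ranged from 1.77 to 17.7 CPM in HFD females (median 5.45) and from 0 to 16.6 CPM in HFD males (median 3.93). Cr2 ranged from 4.15 to 48.5 CPM in HFD females (median 13.7) and from 0.0925 to 33.4 CPM in HFD males (median 13.7). In each of these genes the lowest male, replicate 4, lay below every female. The highest male, replicate 6, lay above every female in Cd79a and within their range in Ms4a1 and Cr2. The log2 fold changes were 0.13 (SE 0.69) for Cd79a, 0.24 (SE 0.81) for Ms4a1 and 0.26 (SE 0.78) for Cr2. Cd72 (0.71) and Spib (0.79) had the largest positive values. Without HFD males replicate 6, 5 genes passed (Ebf1 lower, and Bach2, Cd37, Pou2af1 and Spib higher in females), against 4.69% of all genes. The exact permutation test gave p under 0.05 for 2 of the 30 genes, Ebf1 and Vpreb3, against 5.45% of all genes. Vpreb3, below the filter, had an exact permutation p of 0.0476, with at most 0.671 CPM in females and 0.211 in males.

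HFD was compared with CD in females to ask what the diet does to these genes. With edgeR 0 of the 29 genes tested passed the threshold (1, Blnk, at an unadjusted p under 0.05), with 0 also in DESeq2, against 3.67% of all 15061 genes. The adjusted p was under 0.05 for 0 of them and for 0.0199% of all genes. The median log2 fold change was -0.37 (0.00 for all genes), and 24 of the 29 values were negative. The lowest p was that of Blnk, one of the 5 with a positive value. Blnk ranged from 66.5 to 77.9 CPM in HFD females (median 71.8) and from 45.0 to 71.2 CPM in CD females (median 62.0). All but 1 of the CD females lay below every HFD female. Its change was small, below the fold minimum (log2 fold change 0.25, SE 0.10, adjusted p = 0.708, exact permutation p = 0.00866). Ltb had the lowest log2 fold change, -0.86 (SE 0.47, adjusted p = 0.963), followed by Fcer2a (-0.70) and Tnfrsf13c (-0.68). Cxcl13 had -0.53 (adjusted p = 0.913). Without HFD females replicate 6, 11 genes passed, all lower on HFD, against 4.44% of all genes, and 0 of them had an adjusted p under 0.05. Without CD females replicate 2 or 3 it was 2. The HFD females also differed in squamous epithelium genes. These summed to 1413, 1550, 1406 and 313 CPM in HFD females replicates 1, 3, 4 and 5, and to at most 6.44 in CD females. HFD females replicates 2 and 6 had 3.10 and 1.03 CPM of them, and the highest B lineage sums of their group (89.8 and 178 CPM). The part of squamous tissue in this comparison was not tested.

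In males the same diet comparison had mostly positive values. With edgeR 0 of the 24 genes tested passed (1, Blnk, at an unadjusted p under 0.05), with 0 in DESeq2, against 2.9% of all 14991 genes (1.25% as higher). The study, with DESeq2, lists Ccr6 and Tnfrsf13c among its HFD-regulated genes in males. Neither passed here with all libraries, and Tnfrsf13c did not reach the edgeR test because of the filter on low counts. The study's figure gives a range for the number of animals per group, so its libraries may differ from those used here. The median log2 fold change was 0.56 (-0.01 for all genes), and 23 of the 24 values were positive. Cd79a had 0.87 (SE 0.79), Cr2 0.85 (SE 0.87) and Ccr6 0.83 (SE 0.83). Bach2 had the only negative value, -0.13. Blnk ranged from 63.8 to 84.0 CPM in HFD males (median 72.8) and from 55.8 to 73.0 CPM in CD males (median 62.4). The groups overlapped, with 4 CD males below every HFD male (log2 fold change 0.21, SE 0.09, adjusted p = 0.823, exact permutation p = 0.0238). Without CD males replicate 1, 8 genes passed, all higher on HFD (4.68% of all genes in either direction and 2.22% as higher). Ccr6 was among them (log2 fold change 2.35, adjusted p = 0.462). Of the 8, 0 had an adjusted p under 0.05 (0.0133% of all genes). This comparison shares its HFD males and its CD males with the comparisons of the sexes, so its values are not independent of theirs.

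Whether females and males responded differently to HFD was tested directly with an interaction term over the 24 vehicle-treated animals. With edgeR 0 of 29 genes passed (0 at an unadjusted p under 0.05), with 0 in DESeq2, against 5.18% of all 15800 genes (1.47% as lower and 3.71% as higher). The median log2 value was -0.91 (0.01 for all genes), with 27 of 29 negative. A negative value stands for a lower response to HFD in females than in males, but no such difference was established for any of these genes. Most of the genes moved together from animal to animal, so their signs are not independent. The standard errors were wide, with a median of 0.90. Cxcl13 had the lowest p (log2 fold change -0.80, SE 0.41, adjusted p = 0.739), and Tnfrsf13c the lowest value (log2 fold change -1.67, SE 0.96, adjusted p = 0.743). Without CD males replicate 1, 15 genes passed, all negative, against 7.28% of all genes (2.79% as lower), and 0 had an adjusted p under 0.05 (0.00627% of all genes).

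E2 was compared with vehicle in HFD males to ask what estrogen does to these genes on the diet. With edgeR 0 of the 27 genes tested passed (0 at an unadjusted p under 0.05), with 0 in DESeq2, against 5.87% of all 15010 genes (2.63% as higher). The adjusted p was under 0.05 for 0 of them and for 0.00666% of all genes. The median log2 fold change was 0.35 (0.00 for all genes), and 22 of 27 values were positive. Cd79a ranged from 1.28 to 9.11 CPM in HFD males given E2 (median 2.07) and from 0.0925 to 7.70 CPM in HFD males (median 1.19). Spib ranged from 1.41 to 8.07 CPM in HFD males given E2 (median 4.49) and from 0.185 to 7.70 CPM in HFD males (median 1.83), and Cd37, a tetraspanin, ranged from 2.31 to 9.57 CPM in HFD males given E2 (median 3.20) and from 1.11 to 7.70 CPM in HFD males (median 1.80). The groups overlapped in all 3, and the lowest animal was HFD males replicate 4. Spib had the largest log2 fold change (log2 fold change 0.88, SE 0.60, adjusted p = 0.578), and Cd37 had 0.85 (adjusted p = 0.532). Blnk had the lowest p (log2 fold change -0.17, SE 0.10, adjusted p = 0.526).

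Single animals also moved the values of the E2 comparison. Without HFD males replicate 6 the median log2 fold change was 0.88 and 5 genes passed, all higher with E2 (Bach2, Cd37, Fcer2a, Pax5 and Spib), against 7.7% of all genes. Without HFD males given E2 replicate 3 the median was 0.0045 and 0 passed. The sum of the B lineage genes in HFD males given E2 without replicate 3 lay between 34.0 and 101 CPM, within the range of the HFD males.

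**Figure D5:**
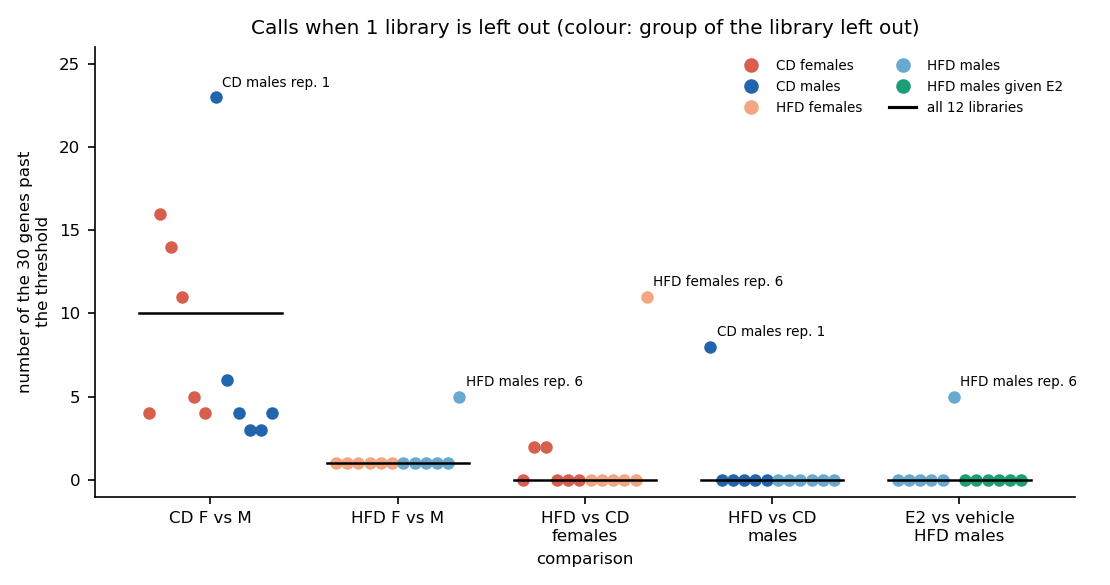
Number of the 30 genes past the threshold (vertical axis) in each comparison (horizontal axis) when 1 library is left out, with the colour showing the group of that library and black lines the number with all 12 libraries; F, females; M, males. Without CD males replicate 1 the number rises from 10 to 23 between the sexes on CD and from 0 to 8 between the diets in males.

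Plasma cell genes, the products of B cells that have left the follicle programme, had another pattern. Of 7 tested, 5 were higher in HFD females than in HFD males, against 2.01% of all genes past the threshold as higher, and 5 were higher in HFD females than in CD females (2.95%). Jchain ranged from 71.5 to 175 CPM in HFD females (median 130.3) and from 6.75 to 46.9 CPM in HFD males (median 19.99) (log2 fold change 2.35, SE 0.51, adjusted p = 0.404). Igkc ranged from 122 to 422 CPM in HFD females (median 227) and from 15.3 to 80.3 CPM in HFD males (median 45.7) (log2 fold change 2.37, SE 0.42, adjusted p = 0.118). In both genes every HFD female lay above every HFD male, and of all 16060 genes 0.399% had no overlap in this comparison. The 2 genes were named for having the lowest p of the list. None of these had an adjusted p under 0.05. The 30 B cell and follicle genes had 0 higher in either of these comparisons, and the difference between the 2 lists was not tested. Ighm, the heavy chain of IgM, which B cells and plasma cells share, was also higher in HFD than in CD females (log2 fold change 0.86, SE 0.39, adjusted p = 0.872).

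The 12 companion lists ranked by how closely their genes followed the B lineage genes over the 30 libraries, with group means removed. The median r was 0.717 for the other B cell genes, 0.627 for follicle stroma and high endothelium, 0.624 for B cell receptor signalling, 0.514 for dendritic cells, 0.487 for plasma cells and 0.303 for the 4 T cell genes over 1 CPM. It was 0.257 for colon epithelium, 0.239 for adipocytes, 0.107 for germinal centre genes and 0.052 for M cells, although Gp2 alone had 0.781. It was negative for smooth muscle (-0.532, all 8 genes between -0.640 and -0.347) and for stratified squamous epithelium (-0.371). The squamous genes summed to between 1.03 and 1550 CPM in HFD females. The lowest were replicate 6 (1.03) and replicate 2 (3.10), and the others had at least 313 CPM. The sum was 435 CPM in HFD males replicate 2, 123 in HFD males replicate 4 and at most 2.39 in the other HFD males. They reached at most 6.44 CPM in CD females, 17.0 in CD males and 2.76 in HFD males given E2. Krt14, a keratin of that epithelium, was higher in HFD females than in CD females (log2 fold change 6.99, SE 1.63, adjusted p = 0.412) and than in HFD males (log2 fold change 4.15, SE 1.70, adjusted p = 0.872), and lower with E2 (log2 fold change -2.92, SE 1.21, adjusted p = 0.476). The part of squamous tissue in the diet, HFD sex and E2 comparisons was not tested.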

How the data were processed

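Colon RNA of 30 mice (6 in each of 5 groups) was sequenced after ribosomal RNA removal with a stranded total RNA kit. Per the labels and the submitters' processing notes, the authors used bcl2fastq 2.19.1.403, Trim Galore, STAR, featureCounts and StringTie on mm10 (GRCm38). The annotation and the strand setting of the counting are not given in the sources used here. The authors deposited raw gene counts in 1 table and TPM from StringTie in 1 file per library. The counts of all 30 libraries correlated best with their own TPM. The study tested counts with DESeq2. Columns mapped to no sample numbered 0.

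The 30 genes and the companion lists were chosen with earlier results of these data known, and the promoter motifs after the values had been seen. The search also covered 2 longer motifs, which are not reported here. Named were all 30 genes, at most 2 called genes with the lowest p per companion list and comparison, the genes of the 7 tested pairs, and, of the 10 genes most like the mean of the 30, 8, since the other 2 are not reported here. Tesk1 was named because its exons overlap Cd72.

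Counts were fitted over the whole table with edgeR 4.0.16 in R 4.3.3 (filterByExpr, TMM, robust quasi-likelihood F test), each comparison on its own libraries. The threshold required an unadjusted p below 0.05 and a log2 change, up or down, above 0.4, and adjusted p-values are Benjamini-Hochberg over all genes tested. Standard errors were derived from the F statistic. CPM used TMM-scaled library sizes, with a prior count of 2 for log2 CPM. Single genes were tested with exact permutation of 924 splits, and pairs of genes with 100000 permutations within groups. Alternatives were DESeq2 1.42.0, limma 3.58.1 on log2(TPM + 0.1) and log2(TPM + 1), other filters, 1 fit of all 30 libraries, a replicate block and each library left out in turn. The edgeR step was tested on simulated counts. Python 3.11.15, NumPy 2.4.6, pandas 2.3.3, SciPy 1.17.1 and matplotlib 3.10.9 were used. Totals of 8667177 to 17243712 counts gave genes with a median of under 20 counts per library little precision. Nothing ties the libraries to litters or cages, which could not be checked, and the p-values of the main fits take the animals as independent. The agreement of same-numbered animals, and fits with the number as a block, are given with the dependence on processing. More genes passed between the sexes on CD in the block fit.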

Additional observations from a re-analysis of the deposited data

Results flagged for a closer look

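In each group of 6 animals, the highest and the lowest log2 CPM of each of the 30 genes were compared with the nearest other animal. In 9 of 150 groups that gap was over 0.625 of the whole range, while chance alone gives about 1 in 20, or 7.5. Of the 9, 8 came from 3 animals, and a cause was not tested.

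CD males replicate 1 stood above the other CD males in Blk (log2 CPM 1.8523, with 3.44 CPM against 0.677 in the next animal), Cd72 (2.0399, 3.94 against 1.36 CPM) and Gpr183 (2.0146, 3.87 against 1.88 CPM). HFD males replicate 4 stood below the other HFD males in Cr2 (-1.9135, 0.0925 against 8.66 CPM), and in Ms4a1 and Cxcr5, which had 0 counts there (-2.5314 in both, set by the prior count). HFD males replicate 6 stood above the others in Cd37 (2.9761, 7.70 against 1.88 CPM) and Bach2 (2.9953, 7.80 against 2.93 CPM). CD females replicate 2 stood below the others in Bcl11a (3.5202, 11.3 against 22.3 CPM).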

How the results depend on the processing

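For CD females against CD males, the 10 genes past the threshold became 5 with no filter on low counts (8.13% of all genes), 2 of 12 tested with at least 10 counts in every library (8.63%) and 16 in log2(TPM + 0.1) (11.3%). Of the 16, Ebf1 was lower in females. In log2(TPM + 0.1) 1.49% of all genes were higher and 9.79% lower, against 2.94% and 6.21% in counts, and for E2 0.999% and 8.67%, against 2.63% and 3.24%. The 0 genes past the adjusted p became 3 with DESeq2 (2.8% of all genes) and 1 in log2(TPM + 0.1) (1.87%) and in log2(TPM + 1) (2.04%). With single libraries left out, the genes past the threshold ranged from 3 to 23, those past the adjusted p from 0 to 15 and the median log2 fold change from 0.80 to 1.94, each highest without CD males replicate 1. Between the sexes on HFD, 2 genes passed with no filter on low counts, and the single genes with an exact permutation p under 0.05 numbered 1 in log2 TPM against 2. With no fold minimum 1 gene passed between the diets in females and 1 in males. For E2, 1 gene passed in log2(TPM + 0.1) and in log2(TPM + 1), and 1 had an exact permutation p under 0.05 in log2 TPM against 0. The r of Cd79a with Cd3e was 0.389 in log2 TPM (permutation test, adjusted p = 0.0338). The causes were not tested.

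With single libraries left out, the genes past the threshold numbered, against 2.27% to 9.86% of all genes in these comparisons of 2 groups, 1 to 5 between the sexes on HFD (5 without HFD males replicate 6), 0 to 11 between the diets in females (11 without HFD females replicate 6), 0 to 8 in males (8 without CD males replicate 1), 0 to 5 for E2 (5 without HFD males replicate 6) and 0 to 15 for the interaction (15 without CD males replicate 1, and 4.02% to 8.89% of all genes). Median log2 fold changes ranged from -0.23 to 0.81, from -0.67 to -0.12, from 0.07 to 1.31, from 0.0045 to 0.88 and from -1.74 to -0.35 in the same order. In each comparison the single genes followed were Cd79a, Ms4a1, those past the threshold and those with the lowest p or an extreme value. Among these, signs turned between the sexes on HFD for Cd79a (-0.23 to 0.93) and Ms4a1 (-0.24 to 0.82). Between the diets they turned for Cd79a in females (-0.71 to 0.038) and Bach2 in males (-0.51 to 0.10). For E2 they turned for Cd79a (-0.33 to 1.23), Fcrla (-1.10 to 0.20) and Ms4a1 (-0.25 to 0.71). Sign changes of the other genes were not counted.

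Groups share replicate numbers, and the labels do not tie these to litters or cages. Not every pair of same-numbered animals deviated together (r from -0.14 to 0.51 between the sexes on CD, with 5 of 6 over 0.1 and 4 of 6 best with their own number). The number best with their own was also 4 of 6 between the diets in males and for E2. It was 1 between the sexes on HFD and 0 between the diets in females. The main fits did not take the numbers as pairs, and whether they mark pairs was not tested. With the number as a block, 18 genes passed between the sexes on CD (10.3% of all genes) and 4 passed the adjusted p (6.31%). Between the sexes on HFD 5 passed (3.56%), between the diets 1 in females (3.36%) and 0 in males (3.72%), and for E2 2 (7.71%).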
